A study of Mus musculus with 10 samples.

Results

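The genes described here encode the protein parts of the mitochondrial ribosome. They were chosen by name: every gene whose only annotated symbol was Mrpl or Mrps followed by a number, with the probe of highest mean intensity standing for the gene. The rule found 72 genes among the 17991 named genes on the array, and 85 probes named them. Of these genes 46 belong to the large ribosomal subunit and 25 to the small one. The remaining member, Mrps36, carries the name of a ribosomal protein but is known as a component of the 2-oxoglutarate dehydrogenase complex. Mrps30 and Mrps18a were counted with the large subunit, where their proteins sit despite their names. A further 3 probes listed a member together with another gene and were not used, which left Mrpl32 without a probe.

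RNA came from the abdominal aorta of male ApoE-/- mice, 14 weeks old, which lack apolipoprotein E and develop high cholesterol and atherosclerosis. Tissue of 2 mice was combined in each of 5 pools, and every pool gave an infrarenal sample (the stretch under the renal arteries) and a suprarenal one (the stretch over them). All groups thus shared the same genotype, sex and age, and wild-type mice were not analysed here. Every sample had 1 array, so there were 5 arrays per region, named here by the pool numbers 1, 6, 8, 11 and 12. Values are log2 of intensities that the authors had scaled to an array median of about 1, so that 0 is the middle of an array. A difference is infrarenal minus suprarenal within a pool, averaged over the pools, and a negative difference means a lower infrarenal level.

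Mitochondria translate a small set of messages, all for subunits of oxidative phosphorylation, on a ribosome of their own. Its RNAs come from the mitochondrial genome, while all of its proteins are encoded in the nucleus, made in the cytosol and imported. Some of these proteins descend from bacterial ribosomal proteins, and others exist only in mitochondria. Tissues with many mitochondria, such as brown fat and heart, are rich in these messages, whereas the smooth muscle of the aortic wall has fewer mitochondria and is surrounded by perivascular fat.

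The promoters of the member genes are shown first, because shared letters around the start site are a property that the naming rule did not use. Promoter windows from RefSeq (GRCm38.p6), running from 250 bases before to 50 bases after the start, were found for 63 of the 72 members, as 69 windows. Letters were searched on both strands. The core bound by ETS factors such as GABP, CCGGAAG, was in 33.3% of the member windows, in 8.86% of all 32851 windows and in 11.6% of the windows of protein-coding genes. The palindromic motif of the factor NRF1, which is GCGCA, then any base, then GCGC, was in 15.9% of the member windows and in 4.60% of all windows. The YY1 motif AAGATGGC was also in 15.9% of the member windows and in 2.75% of all. Of the 11 member windows holding it, only that of Mrpl36 had it within the last 100 bases before the start. At least 1 of these 3 motifs was in 55.1% of the member windows and in 14.7% of all. In the windows of protein-coding genes the shares were 6.38% for NRF1, 3.05% for YY1 and 18.9% for any of the 3. The nuclear receptor motif AAGGTCA, read by oestrogen-related receptors, was in 5.80% of the member windows, 4.72% of all and 4.08% of protein-coding ones. The member windows had a median GC content of 58.7%, against 52.7% for all windows and 56.3% for protein-coding ones. The ETS core and the NRF1 motif are rich in G and C. A match is a run of letters and not evidence of binding. The stretches below end at the last base before the start and are 100 bases long. They were picked from the members named in the results to show the ETS core, the NRF1 motif and a stretch with neither, with matches in capitals.
Mrpl43, chr19:45006443-45006542, minus strand, 2 ETS cores: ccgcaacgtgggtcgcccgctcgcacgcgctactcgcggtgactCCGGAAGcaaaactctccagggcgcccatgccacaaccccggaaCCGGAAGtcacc
Mrpl53, chr6:83109008-83109107, plus strand, 2 ETS cores, the second in reverse: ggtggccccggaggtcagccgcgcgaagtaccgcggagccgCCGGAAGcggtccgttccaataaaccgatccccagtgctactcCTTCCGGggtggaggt
Mrps27, chr13:99344686-99344785, plus strand, an ETS core in reverse: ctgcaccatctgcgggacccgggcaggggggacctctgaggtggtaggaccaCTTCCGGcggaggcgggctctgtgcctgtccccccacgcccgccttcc
Mrpl34, chr8:71464826-71464925, plus strand, an ETS core: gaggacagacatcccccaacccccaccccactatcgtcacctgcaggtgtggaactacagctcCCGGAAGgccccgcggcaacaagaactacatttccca
Mrpl12, chr11:120484537-120484636, plus strand, the NRF1 motif in reverse: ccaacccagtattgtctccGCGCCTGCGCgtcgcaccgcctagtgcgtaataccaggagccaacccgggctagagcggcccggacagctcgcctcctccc
Mrpl30, chr1:37890377-37890476, plus strand, the NRF1 motif in reverse: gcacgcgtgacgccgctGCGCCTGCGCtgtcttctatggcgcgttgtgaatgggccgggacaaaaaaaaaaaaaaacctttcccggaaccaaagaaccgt
Mrps15, chr4:126046828-126046927, plus strand, neither motif: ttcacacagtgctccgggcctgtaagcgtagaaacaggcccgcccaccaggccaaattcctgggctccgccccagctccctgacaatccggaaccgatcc

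In Mrpl43 the matches began 56 and 12 bases before the start, and in Mrpl53 59 and 16 bases before it. Members with and without an ETS core had similar regional differences: the median was -0.25 over the 23 genes with the core and -0.27 over the 40 without. For the NRF1 motif the medians were -0.24 over 11 genes and -0.27 over 52.

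Across the series, the lowest correlation of 2 arrays over their probes was 0.962 and the highest 0.975 (probes are no independent replicates). Precision is limited by how few arrays there were. Smooth muscle markers were bright on all arrays, with a list mean between 5.80 and 6.21, and Acta2 at a mean of 8.61. Brown adipocyte markers were dimmer as a list, with a list mean between 1.72 and 3.89, but Ucp1 had a mean of 7.13. The segments thus carried fat as well as wall. In such mixed tissue, fewer cells of a type and less RNA per cell cannot be told apart. Pool 12 stood apart. Hox genes of paralogue groups 9 to 13, which mark posterior positions, averaged 0.064 on infrarenal array 12 and 0.95 on suprarenal array 12, whereas the infrarenal arrays of the other pools read 0.69 to 0.93 and their suprarenal arrays 0.046 to 0.62. Suprarenal array 12 also had the lowest brown adipocyte level, 1.72 against 3.42 to 3.89 on the other suprarenal arrays, and the highest skeletal muscle level, 4.27 against 0.55 to 3.14. The Hox order of pool 12 was thus the reverse of the other pools. Whether its labels are exchanged was not tested, and no array was regrouped. With exchanged labels every pool 12 difference below would change sign, and the means and counts over 5 pools would change with it. The members' count, the means over the members, several named members and the fat and respiratory lists are therefore also given without this pool.

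All 72 mitochondrial ribosomal protein genes had a negative mean difference between the regions, from -0.52 to -0.0055, with a median of -0.26, or a level 16.3% lower in infrarenal aorta. A difference below 0 was found for 60.4% of all genes, with a median of -0.049. With the dimmest 30% of probes left out, which removed no member, the share was 66.5% and the median -0.065. By limma with Benjamini-Hochberg adjustment over all probes, 0 of the 72 passed the threshold of 0.05, as did 0 of all genes (0%), and the members' adjusted p-values lay between 0.639 and 0.990. At an unadjusted p under 0.05 there were 31 members, or 43.1%, all with negative differences, against 8.05% of all genes in either direction, 5.89% with a lower and 2.17% with a higher infrarenal level. The difference was negative in all 5 pools for 19 members, or 26.4%, against 6.23% of all genes. Every infrarenal value lay below every suprarenal value for 1 member, Mrpl43, or 1.39%, against 0.884% of all genes.

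**Figure D1:**
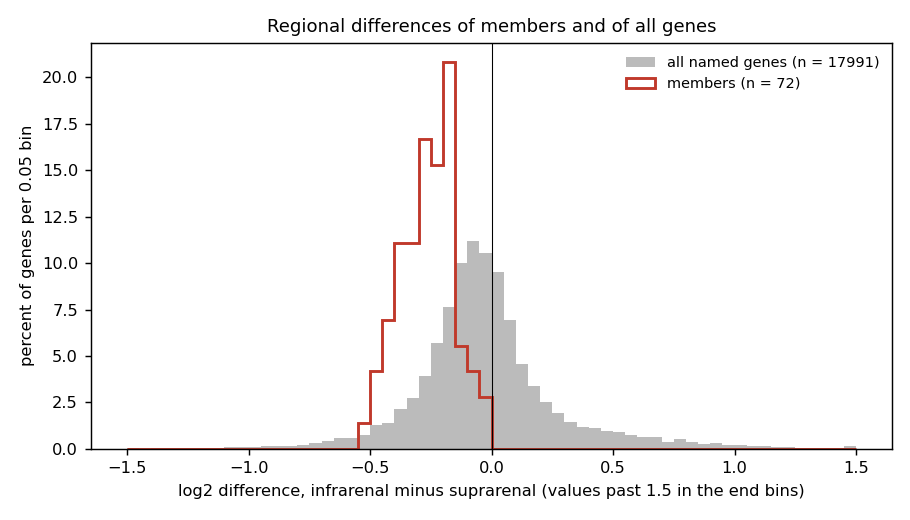
Histogram of log2 differences, infrarenal minus suprarenal, as the percent of genes in each bin of 0.05, for the 72 members (red line) and all 17991 named genes (grey). All members lie left of 0, between -0.52 and -0.0055, inside the range of the other genes.

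The size of the count at an unadjusted p rested on single pools. It was 8 without pool 6, where 3.99% of all genes had such a p. It was 16 without pool 8 (all genes 4.89%), 15 without pool 11 (6.24%) and 37 without pool 12 (12.75%). With pools 6 and 12 both left out, an alternative chosen after seeing the data, it was 11 (6.51%), and 70 of 72 differences were still negative. After quantile normalization the members' median was -0.15 and their mean -0.16, 67 differences were negative and 10 members had an unadjusted p under 0.05, while the all-gene shares were 49.65% negative, 2.85% in this direction at an unadjusted p under 0.05, and a median of 0.0015. The positive ones were Mrps26 at 0.0996, Mrpl23 at 0.067, Mrps5 at 0.047, Mrpl58 at 0.024 and Mrpl33 at 0.0036.

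Averaged over the 72 genes, the level was 4.11, 3.58, 3.94, 3.81 and 3.73 on infrarenal arrays 1, 6, 8, 11 and 12. On the suprarenal arrays of the same pools it was 4.13, 4.26, 4.15, 4.15 and 3.78. The regions overlapped, because suprarenal array 12 read below infrarenal arrays 1, 8 and 11. The difference was -0.018 in pool 1, -0.68 in pool 6, -0.21 in pool 8, -0.34 in pool 11 and -0.057 in pool 12. Their mean was -0.26 ± 0.27 (SD, n = 5 pools). The spread between pools was thus as large as the mean, and pool 6 gave the most negative difference for 63 of the 72 genes. It joined the highest suprarenal mean to the lowest infrarenal one. The mean was -0.16 without pool 6 and -0.31 without pool 12. Infrarenal array 6 was the lowest of its region for 55 genes and infrarenal array 1 the highest for 55. Suprarenal array 12 was the lowest of its region for 61.

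**Figure D2:**
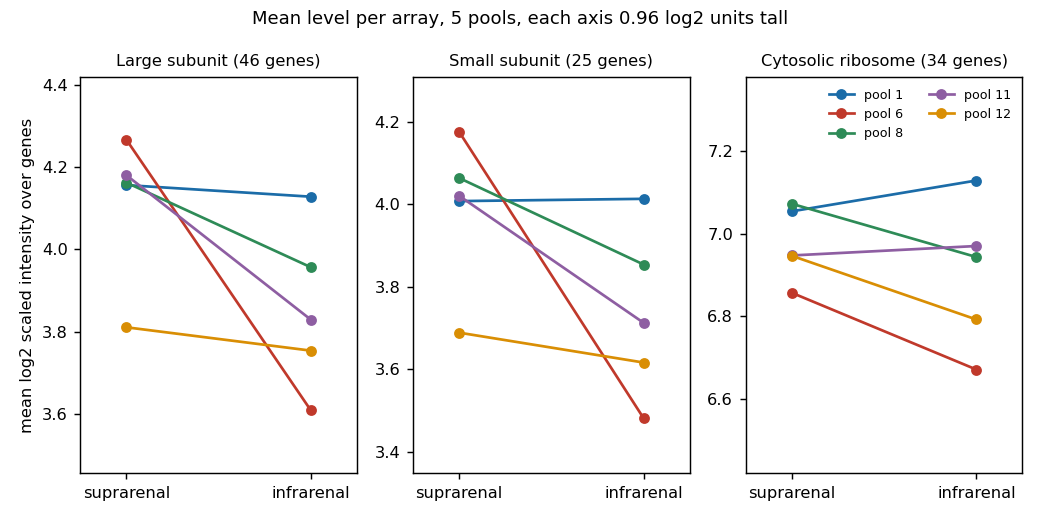
Mean log2 scaled intensity over the 46 large subunit genes, the 25 small subunit genes and 34 cytosolic ribosomal protein genes on each array, with a line joining both parts of a pool. The lines of pools 6, 8 and 11 slope down to the infrarenal side for both mitochondrial subunits, and in those panels suprarenal array 12 lies below the other suprarenal arrays.

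Counted by pool, differences were negative for 42 of 72 members in pool 1 (58.3%, against 45.8% of all genes), 71 in pool 6 (98.6% against 52.6%), 61 in pool 8 (84.7% against 62.3%), 66 in pool 11 (91.7% against 56.0%) and 41 in pool 12 (56.9% against 56.6%). Pools 6, 8 and 11 carried the common direction. Pools 1 and 12 were close to even. The only member with a positive difference in pool 6 was Mrpl51, at 0.075.

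**Figure D3:**
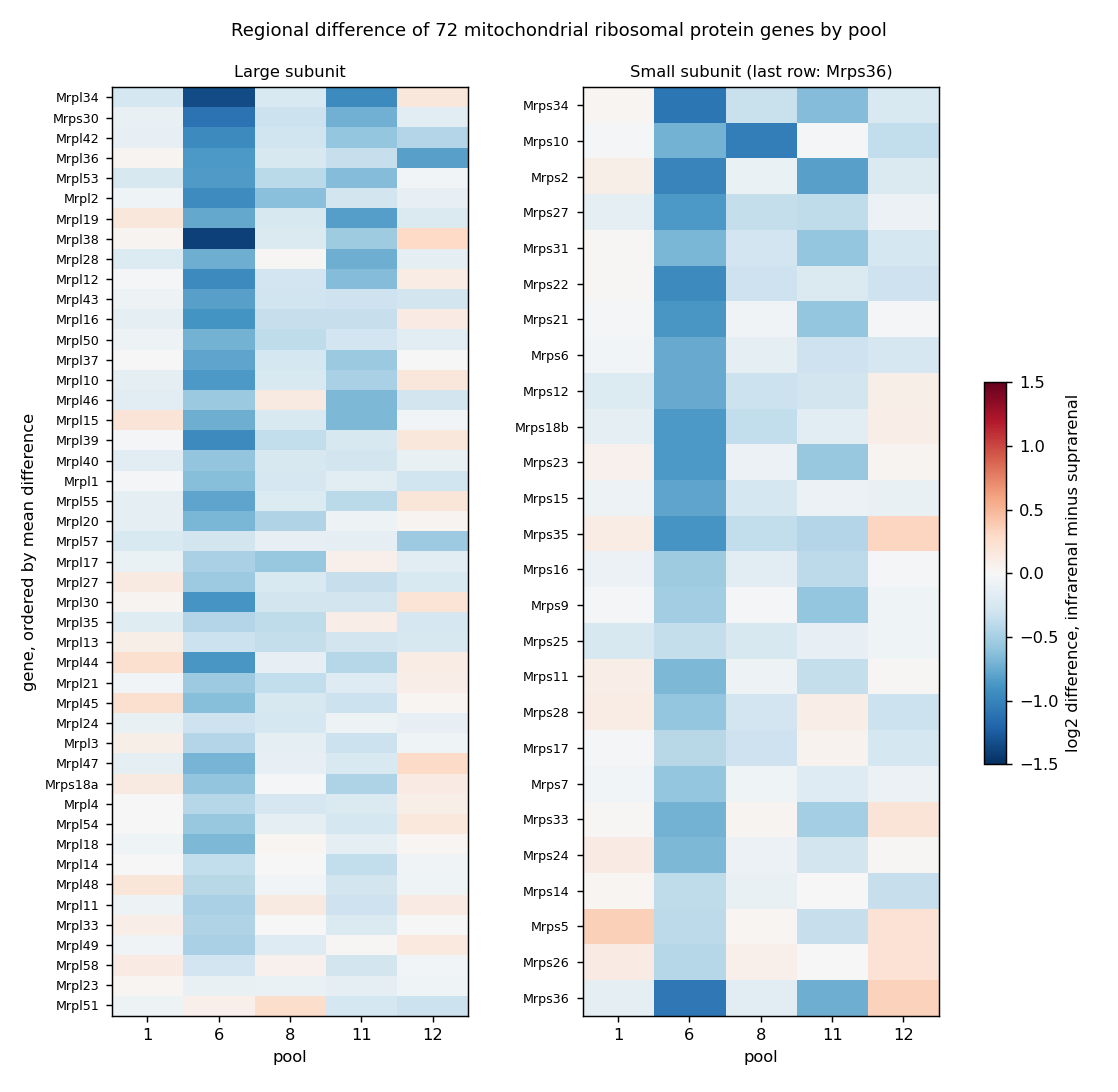
Log2 difference of each of the 72 members (rows, ordered by mean difference within a subunit) in each pool (columns), blue where the infrarenal level was lower and red where it was higher. Column 6 is blue in all rows but Mrpl51, and columns 1 and 12 hold both colours.

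The subunits had similar values. The large subunit averaged -0.26 ± 0.26 (SD, n = 5 pools) and the small subunit -0.26 ± 0.27, with medians of -0.25 for each. By pool the large subunit read -0.028, -0.66, -0.21, -0.35 and -0.057 in pools 1, 6, 8, 11 and 12, and the small subunit 0.0055, -0.69, -0.21, -0.31 and -0.072. At an unadjusted p under 0.05 there were 21 of 46 large subunit genes (45.7%) and 10 of 25 small subunit genes (40%), all lower. Among all genes 5.89% were lower at this p. Proteins of bacterial descent and those found only in mitochondria had close medians. In the large subunit the median difference was -0.24 over 27 genes with a bacterial counterpart and -0.28 over 19 without. In the small subunit it was -0.24 over 16 genes and -0.28 over 9. Neither split was tested. In the values as the authors scaled them, the brightness of the probe did not order the differences. The 24 dimmest members had a median of -0.24, the 24 in the middle -0.27 and the 24 brightest -0.25. Quantile normalization moved the dimmest probe of each subunit little, Mrpl46 from -0.31 to -0.29 and Mrps34 from -0.45 to -0.43. It moved bright probes further, such as Mrpl20 from -0.27 to -0.13 and Mrpl23 from -0.079 to 0.067.

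Mrpl12 encodes the stalk protein through which the large subunit engages translation factors, and it has also been found bound to the mitochondrial RNA polymerase. It read 5.53, 4.61, 5.14, 4.99 and 5.0 on infrarenal arrays 1, 6, 8, 11 and 12. On the suprarenal arrays it read 5.54, 5.57, 5.42, 5.64 and 4.89. Infrarenal array 6 and suprarenal array 12 were the low ends of their regions, and the groups overlapped. The infrarenal mean was 5.05 ± 0.33 and the suprarenal mean 5.41 ± 0.30 (SD, n = 5), a difference of -0.36 ± 0.16 (SE; limma adjusted p = 0.639), negative in 4 of 5 pools.

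Mrps15 encodes a small subunit protein of bacterial descent that binds the ribosomal RNA. It read 5.11, 4.61, 5.08, 4.93 and 4.64 on the infrarenal arrays in the same order, and 5.19, 5.40, 5.34, 5.01 and 4.75 on the suprarenal arrays. The difference was -0.27 ± 0.12 (SE; limma adjusted p = 0.639) and negative in every pool, with -0.80 in pool 6 and between -0.26 and -0.079 in the others. The regions overlapped here as well, since suprarenal arrays 11 and 12 lay among the infrarenal values.

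The members of smallest p with a negative difference in all 5 pools were mostly large subunit proteins found only in mitochondria. By an unadjusted p under 0.05 alone, that class did not stand out. Such a p was found for 42.1% of it and for 48.1% of large subunit genes with a bacterial counterpart. Of all genes 5.89% were lower at this p. Mrpl42 had the smallest p of all members, 0.0041 unadjusted. Its infrarenal values were 4.44, 3.70, 4.16, 3.78 and 3.59 and its suprarenal values 4.56, 4.65, 4.45, 4.36 and 4.02, and infrarenal arrays 1 and 8 lay above suprarenal array 12. The difference was -0.48 ± 0.12 (SE; limma adjusted p = 0.639), a level 28.1% lower. Mrpl53 differed by -0.44 ± 0.12 (SE), with pool values between -0.84 and -0.047. Mrpl43 was the member without overlap. Its infrarenal values were 5.46, 5.01, 5.27, 5.33 and 5.21, and its suprarenal values 5.53, 5.83, 5.56, 5.64 and 5.48, so the highest infrarenal array lay just under the lowest suprarenal one. It differed by -0.35 ± 0.11 (SE; limma adjusted p = 0.639).

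Mrpl50 and Mrpl40, of the same class, differed by -0.32 ± 0.10 and -0.28 ± 0.089 (SE). The pool values of Mrpl40 kept within -0.59 and -0.11, a narrower span than for most members. Mrpl2, a protein of bacterial descent near the centre where peptide bonds form, differed by -0.41 ± 0.14 (SE), with -0.95 in pool 6 and -0.062 in pool 1. Mrps27, a small subunit protein with helical repeats found only in mitochondria, differed by -0.36 ± 0.12 (SE). Its infrarenal values were 4.52, 4.17, 4.34, 4.24 and 4.03 and its suprarenal values 4.66, 5.03, 4.70, 4.62 and 4.12, with suprarenal array 12 again among the infrarenal ones. None of these passed, with an adjusted p of 0.639 for each by limma.

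Mrps30, a large subunit protein despite its name, was read by 2 probes for the same accession that disagreed. The brighter one differed by -0.49 ± 0.16 (SE), with infrarenal values of 1.53, 0.64, 1.15, 0.99 and 0.86 and suprarenal values of 1.65, 1.75, 1.48, 1.71 and 1.03. The dimmer one differed by 0.83 ± 0.95 (SE). Its suprarenal values were 1.44, 1.58, -5.17, 1.30 and 1.12, the -5.17 being the floor set for low intensities, and its infrarenal values lay between 0.70 and 1.03. In the other 4 pools the dimmer probe had differences between -0.60 and -0.27, the sign of the brighter one. With both probes averaged, Mrps30 read 0.17.

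Mrpl21 and Mrpl3 also had probes of opposite sign. The brightest Mrpl21 probe differed by -0.21 ± 0.10 (SE), another by -0.42 and the dimmest by 0.083. For Mrpl3, mutations of whose human counterpart cause cardiomyopathy, the brighter probe differed by -0.18 ± 0.094 (SE) and the dimmer one, at a mean of -1.11, by 0.098. Mrpl17 had 3 probes of the same sign: the brightest differed by -0.25 ± 0.11 (SE), and a probe near the background, at a mean of -2.08, by -0.94 with a negative value in all 5 pools.

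Among the large subunit genes with the brightest probes, Mrpl23, whose protein sits at the exit of the peptide tunnel, was nearly level between the regions. Its infrarenal values were 6.34, 6.06, 6.32, 6.26 and 6.13 and its suprarenal values 6.32, 6.18, 6.42, 6.40 and 6.20. The difference was -0.079 ± 0.068 (SE; limma adjusted p = 0.739), with a 95% interval from -0.24 to 0.078. Mrpl33 differed by -0.11 ± 0.095 (SE) and was negative in 2 pools only. Both turned positive after quantile normalization. Mrpl30, Mrpl20 and Mrpl17 differed by -0.24, -0.27 and -0.25, with SEs of 0.11 to 0.15, and by -0.077, -0.16 and -0.19 without pool 6. Probe brightness depends on the probe as well as the message, so these levels do not rank the genes.

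The small subunit genes with the brightest probes were Mrps24, Mrps18b, Mrps16, Mrps17 and Mrps33. Mrps16, whose human counterpart is mutated in a combined respiratory chain deficiency, differed by -0.24 ± 0.094 (SE) and was negative in all 5 pools. Mrps18b, a relative of a single bacterial protein that has several mitochondrial descendants, differed by -0.29 ± 0.13 (SE), and its relative in the large subunit, Mrps18a, by -0.16 ± 0.13 (SE). Mrps24 and Mrps17 differed by -0.18 and -0.19. Mrps33 differed by -0.19 ± 0.14 (SE), with positive values in pools 1, 8 and 12. The dimmest probes of each subunit, Mrpl46 at a mean of 0.45 and Mrps34 at 0.54, still lay above the middle of the arrays and differed by -0.31 ± 0.14 and -0.45 ± 0.16 (SE).

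Pool 6 carried much of these values. Without it 14 of the 26 named members moved nearer to 0 by over 1.5 times: Mrpl12 to -0.21, Mrps15 to -0.14, Mrpl34 to -0.32, Mrpl38 to -0.10, Mrps18b to -0.14, Mrps24 to -0.054 and Mrps33 to -0.060, with Mrpl3, Mrpl20, Mrpl21, Mrpl30, Mrpl33, Mrps27 and Mrps34 as the others. Without pool 12 only Mrps33 moved as far, to -0.29, while Mrpl12 read -0.48 and Mrpl34 -0.70. Mrps33 also moved as far without pool 11, to -0.11.

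The pool differences spread most for Mrpl38 and Mrpl34. Mrpl38 ranged from -1.40 in pool 6 to 0.30 in pool 12 and averaged -0.36 ± 0.22 (SE). Mrpl34 had the most negative mean of all members, -0.52 ± 0.20 (SE; limma adjusted p = 0.639), with -1.34 in pool 6, -0.96 in pool 11 and 0.17 in pool 12. Its suprarenal values were 4.87, 4.88, 4.55, 4.88 and 3.77, of which arrays 8 and 12 lay inside the infrarenal range of 3.54 to 4.61.

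**Figure D4:**
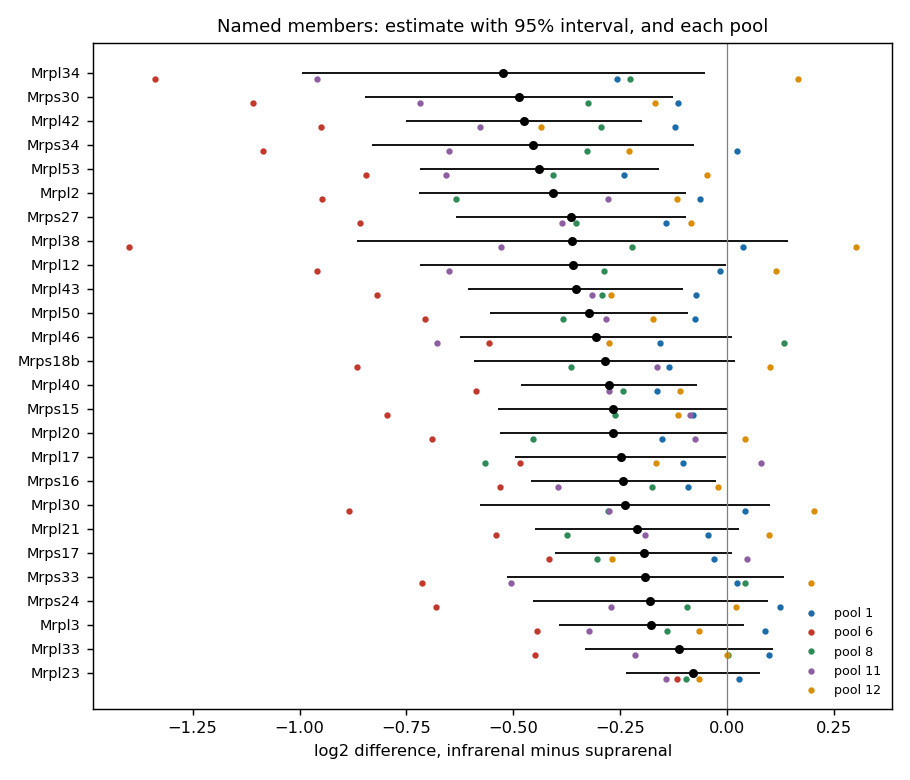
Log2 difference, infrarenal minus suprarenal, of the 26 members picked by the rule given with the processing steps: black points with 95% intervals from limma, and coloured points for each pool. Pool 6 is leftmost for most genes, and pool 12 lies right of 0 for several, such as Mrpl38 at 0.30.

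The following members were named after their values were seen. Mrps26, Mrps5 and Mrpl51 were nearest to 0, at -0.0055 ± 0.10, -0.027 ± 0.13 and -0.066 ± 0.11 (SE). Mrpl51 went against the common order of the pools, with 0.26 in pool 8 and -0.32 in pool 12. Mrps10 had its most negative value in pool 8, at -1.04, and Mrpl36 read -0.81 in pool 12. Mrps12, which lines the site where codons are decoded, differed by -0.30 ± 0.12 (SE), and Mrpl10, the anchor of the stalk that carries Mrpl12, by -0.31 ± 0.14 (SE). Mrpl44, whose protein resembles a bacterial ribonuclease, differed by -0.22 ± 0.16 (SE), with 0.24 in pool 1 and -0.88 in pool 6. Mrpl58, a release factor built into the ribosome, differed by -0.082 ± 0.090 (SE). Mrps36, the member outside the ribosome, differed by -0.35 ± 0.19 (SE), from -1.07 in pool 6 to 0.34 in pool 12.

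Other parts of the mitochondrial translation system had the same direction, again with 0 genes passing by limma in any of these lists. For comparison, 60.4% of all genes were negative, and 5.89% were lower at an unadjusted p under 0.05. Ribosomal proteins with other names had differences below 0 in 4 of 4 genes measured, with a median of -0.28 and 2 at an unadjusted p under 0.05. Among them were Ptcd3 at -0.42 ± 0.14 and Gadd45gip1 at -0.38 ± 0.13 (SE). Of 14 translation factors all were negative, with a median of -0.33 and 8 at an unadjusted p under 0.05. Taco1, an activator of cytochrome oxidase translation, differed by -0.57 ± 0.18 and Gfm1, an elongation factor, by -0.50 ± 0.16 (SE). All 19 mitochondrial aminoacyl-tRNA synthetase and amidotransferase genes, which load tRNAs, were negative, with a median of -0.23 and 6 at an unadjusted p under 0.05. Cars2 and Qrsl1 differed by -0.34 and -0.35.

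Of 22 genes for ribosome assembly and rRNA modification, 21 were negative, with a median of -0.16. At an unadjusted p under 0.05 there were 2, Rbfa at -0.36 and Mrm1 at -0.20, a share close to the 8.05% of all genes. Of 11 genes that copy and transcribe mitochondrial DNA, 10 were negative, with a median of -0.19. Polrmt, the mitochondrial RNA polymerase, differed by -0.35 ± 0.076 (SE; limma adjusted p = 0.639), and Tfb2m, its partner at promoters, by -0.27. Import and chaperone genes had negative mean differences in 20 of 20 cases, with a median of -0.33, and included Hspd1 at -0.48 and Timm44 at -0.38. By pool this list averaged -0.016, -0.91, -0.23, -0.49 and 0.12 in pools 1, 6, 8, 11 and 12. In pool 1 there were 12 negative genes and in pool 12 only 2. Without pool 12 its mean was -0.41 in place of -0.31.

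The products of mitochondrial translation join nuclear-encoded subunits of oxidative phosphorylation, and 50 of 50 such genes were negative, with a median of -0.37. At an unadjusted p under 0.05 there were 16, all lower. Among all genes 60.4% were negative and 5.89% were lower at this p. Ndufb7 and Ndufb3, of complex I, differed by -0.47 and -0.41. This list averaged -0.065, -1.04, -0.29, -0.59 and 0.15 in pools 1, 6, 8, 11 and 12, beside -0.018, -0.68, -0.21, -0.34 and -0.057 for the mitochondrial ribosomal proteins. Cytosolic ribosomal protein genes, which serve all other translation, were negative in 31 of 34 cases, a larger share than the 60.4% of all genes. Their median was -0.067, near the -0.049 of all genes. An unadjusted p under 0.05 was found for 2 of them, Rps13 and Rpl27, at -0.29 and -0.27. That share was close to the 5.89% of all genes with a lower infrarenal level. By pool they averaged 0.075, -0.19, -0.13, 0.023 and -0.15. The differences between these lists were not tested.

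Most markers of fat had negative mean differences as well, and 0 passed by limma. At an unadjusted p under 0.05 there were 2 of 19 brown and 1 of 18 general adipocyte markers, all lower. Among all genes 5.89% were lower at this p. The SD over the 5 pools was 1.20 for the brown and 0.86 for the general list, larger than either mean. Of 19 brown adipocyte markers 17 were negative, with a median of -0.53, and the list averaged 0.032, -1.78, -0.61, -1.56 and 1.14 in pools 1, 6, 8, 11 and 12. Its level ran from 1.96 to 3.57 on the infrarenal arrays and from 1.72 to 3.89 on the suprarenal ones. Fabp3 differed by -1.09 and Me3 by -0.32. Of 18 general adipocyte markers all were negative, averaging -0.22, -1.64, -0.38, -0.57 and 0.76 in the same pools, with levels from 4.06 to 4.86 on infrarenal and from 3.81 to 5.70 on suprarenal arrays. Lpl and Slc2a4 differed by -0.56 and -0.57. Pool 6 was the most negative for both fat lists and for the members. In pool 12 the fat lists were positive, and the members averaged -0.057 there. Without pool 12 the brown adipocyte list averaged -0.98 in place of -0.55, the general adipocyte list -0.70 in place of -0.41 and the oxidative phosphorylation list -0.50 in place of -0.37. The part of fat in the members' differences was not tested.

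Markers of other tissues had other patterns by pool. Skeletal muscle markers averaged -1.22, 1.39, 0.16, 2.19 and -2.60 in pools 1, 6, 8, 11 and 12, positive where the members were most negative, with 8 of 21 negative and a median of 0.31. The markers of smallest p, Tnnt1 and Myh7, were among the negative ones, at -1.02 and -1.15. Sympathetic neuron and adrenal medulla markers averaged -2.49, -0.19, 1.55, -1.47 and 1.75, with 11 of 13 negative, Dbh at -0.18 and Pnmt at 0.092. Cardiac markers, whose tissue is rich in mitochondria, were dim, with list means between -0.71 and -0.052 on the arrays, 5 of 7 negative, and Tnnt2 and Myl7 at -0.38 and -0.56. Macrophage markers were negative in 9 of 10 cases, with 4 at an unadjusted p under 0.05, all lower. Among all genes 60.4% were negative and 5.89% were lower at this p. The median of the macrophage list, -0.25, was close to the -0.26 of the members. By pool the list averaged -0.021, -0.41, -0.34, 0.029 and -0.51, with C1qc and C1qb at -0.42 and -0.33.

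Smooth muscle markers, of the wall itself, were negative in 3 of 10 cases, with a median of 0.056 and Lmod1 and Actg2 at 0.26 and 0.29. By pool they averaged 0.057, 0.31, 0.11, 0.15 and -0.15, positive in every pool but 12. Endothelial markers were negative in 3 of 9 cases with a median of 0.033. The markers of smallest p, Cldn5 and Cdh5, were among the 3, at -0.37 and -0.34, and the 6 others lay between 0.025 and 0.15. Kidney markers were dim and negative in 3 of 10, with Slc12a3 at -0.51 and Slc34a1 at 0.30. None of the markers named here passed by limma, with adjusted p-values from 0.639 to 0.804, and the part of any of these tissues in the members' differences was not tested.

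**Figure D5:**
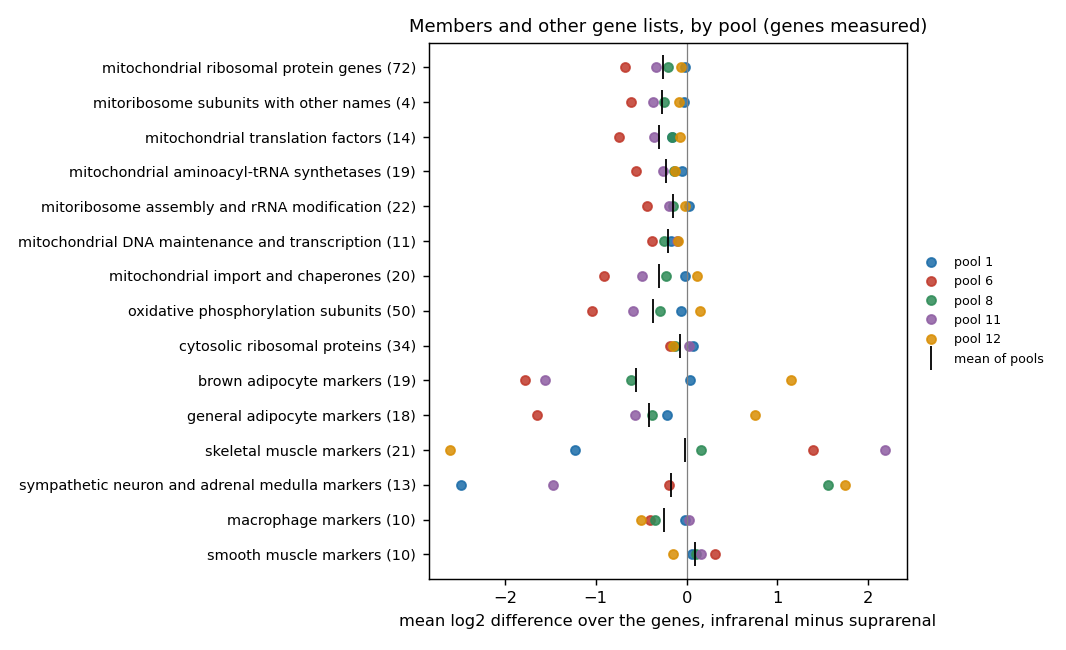
Mean log2 difference, infrarenal minus suprarenal, over the genes of each list (number of genes in brackets), with a coloured point per pool and a black bar at the mean of the 5 pools. Pool 6 is leftmost in the mitochondrial lists drawn, while the fat lists reach 1.14 and 0.76 in pool 12.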

How the data were processed

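RNA from 10 pooled samples was read on 1 array each, in a single colour. The deposited values are linear intensities, scaled by the authors so that array medians lie between 1.001 and 1.003 (seen in the values themselves). How scanning, background correction and scaling were done: not given in the sources used here. Intensities below 0.0278, the percentile 1 of positive values, were raised to it before taking log2, which puts the floor at -5.17. No member value was missing, and all 72 members lay above the dimmest 30% of probes. Of 36227 probes, 36061 had 3 or more values per region and were tested.

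Symbols came from the platform annotation, updated by Entrez identifier through RefSeq's GRCm38.p6 table, which matched 21487 of 21615 probes with a single symbol. The files name no genome build, so coordinates are those of RefSeq's promoters.

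The two-sided regional test was limma's (version 3.58.1, R 4.3.3), using lmFit, then eBayes allowing a trend of variance with brightness. The pool was a block because a pool's samples share their mice. As a check of the pairing, deviations from the region mean had correlations within a pool of 0.0446, 0.00642, -0.0329, -0.0537 and -0.0925 in pools 1, 6, 8, 11 and 12. P-values were adjusted over all probes. The fit was tested on simulated data. Alternatives were quantile normalization, an offset in place of the floor, leaving out the dimmest 30% of probes, each pool left out in turn, no pool block, no variance trend and all probes of a gene averaged. Leaving out pools 6 and 12 together was chosen after seeing the data. The members and lists were chosen with earlier results of these data known, so means and medians over lists carry no test. Named members were Mrpl12 and Mrps15, the 5 brightest and the dimmest of each subunit, the 8 of smallest p with 1 sign in all pools, any with a positive difference (none had), the 2 of widest spread over pools and those whose probes disagree in sign. In other lists they were the 2 of smallest p.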

Additional observations from a re-analysis of the deposited data

Results flagged for a closer look

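In groups of 5 arrays from a region, an array far from the other 4 was looked for in 66 sets of values (Dixon's ratio above 0.71), and 5 were found. Chance gives about 1 in 20. Suprarenal array 12 was low for the mean of all members, at 3.78 against 4.13 to 4.26 on the other suprarenal arrays, for the large subunit, at 3.81 against 4.16 to 4.27, and for Mrpl12, at 4.89 against 5.42 to 5.64. The dimmer Mrps30 probe was at the floor, -5.17, on suprarenal array 8, against 1.12 to 1.58. The dimmest Mrpl21 probe read 0.63 on that array, against 0.95 to 1.01.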

How the results depend on the processing

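No alternative gave a member past the threshold, and the 312 values of the 26 named members under the alternatives kept their direction in 309 cases. Those that turned were Mrpl23 at 0.067 and Mrpl33 at 0.0036 after quantile normalization, and Mrps30 at 0.17 with all probes of a gene averaged. Past the threshold there was 1 probe of the whole array after quantile normalization and 0 under each other alternative. The count of members at an unadjusted p under 0.05, 31 in the report, was 10 after quantile normalization (all genes 5.68%), 12 with no variance trend (5.69%), 11 with pools 6 and 12 both left out (6.51%), and between 8 and 37 when each pool was left out in turn (3.99% to 12.75%). The causes were not tested. With no replicate block it was 26 (7.81%), with 0 probes past the threshold, and the pairing changed no call. The mean over the members kept within -0.32 and -0.16 when a pool was left out and was -0.16 after quantile normalization, where 17 of the 26 named members moved nearer to 0 by over 1.5 times. The median 95% interval of a member reached 0.27 log2 units to each side, so smaller differences mostly missed even an unadjusted p under 0.05. Larger ones did not pass the adjusted threshold either, with Mrpl34 at -0.52 and Mrpl42 at -0.48 as examples.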

Other observations

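Of 13 genes on a list of mitochondrial biogenesis regulators, 11 were negative, with a median difference of -0.15, and 0 passed by limma. At an unadjusted p under 0.05 there was 1, a share close to the 8.05% of all genes. Gabpa, the subunit of GABP that binds the ETS core, differed by -0.36 ± 0.12 (SE) and was negative in all 5 pools. Gabpb1 encodes its partner. The nuclear receptor gene Ppard differed by -0.17 ± 0.077 (SE). Nrf1, Yy1 and Gabpb1 were picked with their values known, at -0.0635, -0.044 and -0.0039. By pool the list averaged 0.14, -0.45, -0.13, -0.48 and 0.13 in pools 1, 6, 8, 11 and 12.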
